A study of Mus musculus with 5 samples.

Results

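Hyaluronan is a long unbranched sugar polymer of the extracellular matrix, and 8 genes for its synthesis, breakdown and binding are described here in murine lung cancer-associated fibroblasts (CAFs). They were taken by symbol from a table of 21835 genes and comprised the synthases *Has1*, *Has2* and *Has3*, the hyaluronidases *Hyal1* and *Hyal2*, and *Cd44*, *Tnfaip6* and *Vcan*, whose products bind hyaluronan. All 8 were found in the table, and 7 had enough RNA to be tested. In CAFs that overexpressed miR-200, *Has2*, *Vcan*, *Tnfaip6* and *Cd44* rose, *Has1*, *Hyal1* and *Hyal2* did not pass the test, and *Has3* was too low to be tested. Bulk RNA sequencing compared 2 samples of CAF-vec with 3 samples of CAF-200, both derived from CAFs of the mouse lung grown in alpha-MEM with fetal bovine serum. CAF-vec carried the empty lentiviral vector and is labelled as the wild-type control, whereas CAF-200 carried a vector for the clustered miRNAs miR-200a, miR-200b and miR-429, and per the labels the infected cells were kept under G418 selection. The labels name a neomycin vector in CAFs and 1 RNA kit, the methods a hygromycin vector in lung fibroblasts and another kit, and the methods speak of triplicates where the labels list 2 CAF-vec samples. The sources do not say that the samples of a group were separate cultures or infections, so *p* values measure only the spread between these samples.

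Hyaluronan is made at the plasma membrane by synthases that join UDP-glucuronic acid and UDP-N-acetylglucosamine and push the growing chain out of the cell. HAS2 is the main synthase of many fibroblasts. Outside the cell the polymer is cut by hyaluronidases and other depolymerases, taken up through receptors and degraded in lysosomes, and it is organized into a pericellular coat by binding proteins such as versican (*Vcan*) and TSG-6 (*Tnfaip6*). In tumors, hyaluronan produced by fibroblasts is a known part of the desmoplastic stroma, and CD44 is its best known receptor.

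The mature sequences of the overexpressed miRNAs are shown because their seeds define which 7-base sites were sought in the 3′-UTRs of the hyaluronan genes. They are RefSeq sequences, written 5′ to 3′ on the minus strand of chromosome 4 (GRCm38.p6), with the seed (bases 2 to 8) in capitals. miR-200b and miR-429 share a seed, and that of miR-200a differs from it.
miR-200b-3p (chr4:156055685-156055706): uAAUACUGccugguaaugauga
miR-429-3p (chr4:156053916-156053937): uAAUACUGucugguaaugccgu
miR-200a-3p (chr4:156054911-156054932): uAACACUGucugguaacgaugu

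The sites complementary to these seeds are CAGTATT for miR-200b and miR-429 and CAGTGTT for miR-200a, and they were sought on the transcribed strand in the longest 3′-UTR that GENCODE M21 annotates for each gene. *Has2* held 1 site for each seed, *Hyal2* 1 for miR-200b and miR-429, and *Vcan* 1 for miR-200a, so 3 of the 8 genes held a match. Of the 12055 tested genes with an annotated 3′-UTR, 15.8% held a miR-200b and miR-429 site, 20.8% a miR-200a site and 30.3% either. *Has1*, *Has3*, *Hyal1*, *Cd44* and *Tnfaip6* held no match in UTRs of 301, 4074, 1564, 2992 and 715 bases, against a median of 1174 bases over the tested genes, and *Hyal1* gained a miR-200a match when every annotated UTR was read. Each site is shown 5′ to 3′ on the strand of its gene in GRCm38, with 9 bases on either side and the match in capitals.
*Has2*, miR-200b and miR-429 (chr15:56667570-56667576, minus strand): ggggctataCAGTATTgtggcaccg
*Has2*, miR-200a (chr15:56667357-56667363, minus strand): tctgcctgaCAGTGTTtgttctaaa
*Hyal2*, miR-200b and miR-429 (chr9:107572133-107572139, plus strand): tgggccaccCAGTATTgcagttgga
*Vcan*, miR-200a (chr13:89656151-89656157, minus strand): gtaatttctCAGTGTTaccttttat

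The *Has2* sites began at bases 83 and 296 of a 3′-UTR of 2032 bases. The *Hyal2* site lay at base 982 of the UTR of another *Hyal2* transcript and falls in coding sequence in the principal transcripts, and the *Vcan* site lay at base 1074 of the UTR of a longer *Vcan* form, outside the principal transcript. A match describes the letters of the annotation and was not tested as a binding site.

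The authors' values are given as CPM, a scaling of read counts to a common total. Each column sums to between 999956 and 1000111, so the depth per sample is unknown. The SD of the log2 difference over the tested genes was 0.49 between the CAF-vec samples, 0.19 to 0.20 between CAF-200 samples and 0.52 to 0.74 across the groups. No gene was at 0 in only some of the CAF-200 samples, whereas 1205 genes were at 0 in 1 CAF-vec sample only, and whether the CAF-200 columns were adjusted together before deposit was not tested. Of 12 fibroblast markers, 11 passed the filter on low values, and their CPM summed to 13509 to 17338 in CAF-vec and 11467 to 12403 in CAF-200, with *Dcn*, *Lum*, *Thy1* and *Acta2* higher and none lower, where 11.9% of all tested genes were higher and 18.6% lower. None of 8 epithelial markers passed it, and their sums stayed at or below 0.452 CPM. The sums of 6 leukocyte, 4 mesothelial and 4 mural markers were 7.23 to 7.41, 5.92 to 6.98 and 3.73 to 5.37 CPM in CAF-vec. In CAF-200 they were 4.73 to 5.99, 1.11 to 1.62 and 2.70 to 3.74 CPM. The mesothelial *Msln* fell by 1.97 on the log2 scale (limma adjusted *p* = 0.0029). The part of such cells in the hyaluronan genes was not tested. *Zeb1*, a known miR-200 target that here checks the labels, was 43.5 and 50.7 CPM in CAF-vec and 37.8, 37.5 and 34.1 CPM in CAF-200. Its log2 fold-change of -0.36 did not pass (limma adjusted *p* = 0.0504). The value was -0.47 without CAF-vec 1 and -0.25 without CAF-vec 2, fits that leave 1 CAF-vec sample and so measure no spread there. *Zeb2* overlapped between the groups.

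Fold-changes are CAF-200 against CAF-vec on log2(CPM + 0.5), which understates the change of low genes, and limma *p* values were adjusted by Benjamini-Hochberg over the 12175 genes that reached 0.5 CPM in 2 or more samples. Of the 7 tested hyaluronan genes, 4 were higher and 0 lower at an adjusted *p* under 0.05, beside 11.9% and 18.6% of all tested genes. The genes were chosen with earlier results of these data known, and *Has2* passed the filter through its CAF-200 samples alone. The shares and medians given here are therefore description and do not test the genes as a group. With at least 1 CPM required in every sample, a filter under which *Has2* was not tested, 3 were higher. At an unadjusted *p* under 0.05, 5 of the 7 passed, the additional one being *Hyal1*, which was lower, and so did 44.9% of all tested genes. The same 4 also passed an adjusted *p* under 0.01 together with a log2 fold-change above 1, thresholds passed upward by 2.37% and downward by 2.35% of all tested genes. The median log2 fold-change was 1.13 over the 7 genes and -0.09 over all tested genes. Over all genes, 1446 were higher and 2265 lower, 1786 and 1893 after quantile normalization, and 1872 and 1756 when every sample was centred on its median, and the hyaluronan genes stayed at 4 higher and 0 lower under both. In bulk RNA, fewer cells expressing a gene and less of its RNA per cell cannot be told apart.

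**Figure D1:**
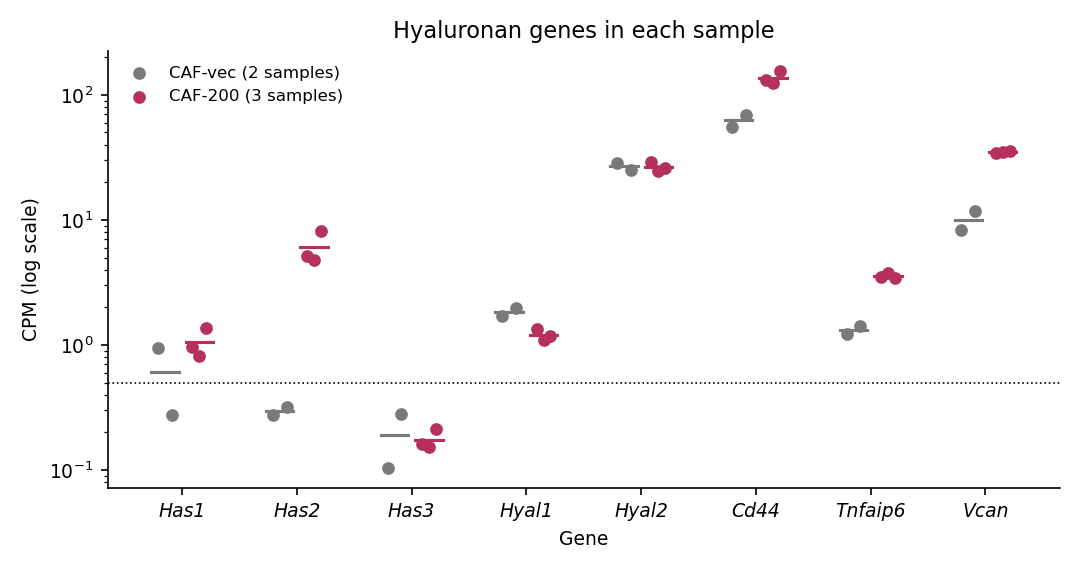
CPM of the 8 hyaluronan genes in each sample, on a log axis; points are samples, horizontal bars are group means, and the dotted line is the 0.5 CPM used in the filter. The 3 CAF-200 samples sit above both CAF-vec samples for *Has2*, *Cd44*, *Tnfaip6* and *Vcan*, below both for *Hyal1*, and overlap with them for *Has1*, *Has3* and *Hyal2*.

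*Has2* (ENSMUSG00000022367, GRCm38 chr15:56665627-56694539, minus strand) changed most. It was 0.274 and 0.319 CPM in CAF-vec and 5.18, 4.75 and 8.18 CPM in CAF-200. Every CAF-200 sample stood far above both CAF-vec samples, and the group means of 0.296 ± 0.0317 (SD, n = 2) and 6.04 ± 1.87 CPM (SD, n = 3) differed by a factor of 20.4. The log2 fold-change was 3.00 (SE 0.240, 95% interval 2.41 to 3.59, limma adjusted *p* = 0.00254), the 11th largest rise of the 12175 tested genes. *Has2* passed the filter on low values through its CAF-200 samples alone. With a pseudocount of 0.1 or 1 CPM its log2 fold-change was 3.91 or 2.41. An antisense gene, *Has2os*, shares 182 exon bases with *Has2* and was not analysed here.

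*Has1* (ENSMUSG00000003665, chr17:17843323-17855205, minus strand) was 0.944 and 0.277 CPM in CAF-vec and 0.972, 0.817 and 1.37 CPM in CAF-200. CAF-vec 2 was the lowest, and CAF-vec 1 lay among the CAF-200 samples. The log2 fold-change of 0.54 (95% interval -0.23 to 1.30) did not pass (limma adjusted *p* = 0.226). It was 0.98 without CAF-vec 1 and 0.09 without CAF-vec 2, fits that leave 1 CAF-vec sample. *Has3* (ENSMUSG00000031910, chr8:106870242-106884566, plus strand) was 0.104 and 0.279 CPM in CAF-vec and 0.161, 0.153 and 0.212 CPM in CAF-200. All its CAF-200 values lay between the CAF-vec values, and none reached the 0.5 CPM required for testing. Fitted without the filter, its log2 fold-change was -0.024 (limma adjusted *p* = 0.893), and a rise or fall of this RNA was not detectable at these levels.

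Because the synthase transcripts differ in length, their make-up was read from CPM per kilobase of the principal transcript. *Has2* made up 12.1% and 29.6% of the 3 synthases in CAF-vec and 71.3%, 73.0% and 73.7% in CAF-200. *Has1* made up 84.6% and 51.9% in CAF-vec and 27.1%, 25.4% and 24.9% in CAF-200. Thus *Has1* was the most abundant synthase RNA in both CAF-vec samples and *Has2* in all 3 CAF-200 samples. The summed level of the synthases was 0.533 and 0.254 CPM per kilobase in CAF-vec and 1.71, 1.54 and 2.62 in CAF-200. *Has3* was 18.6% in CAF-vec 2 and between 1.37% and 3.31% elsewhere. With the union of all exons as the length, *Has2* was 22.3% and 41.7% in CAF-vec, where it then led in CAF-vec 2, and 83.6% to 85.2% in CAF-200.

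**Figure D2:**
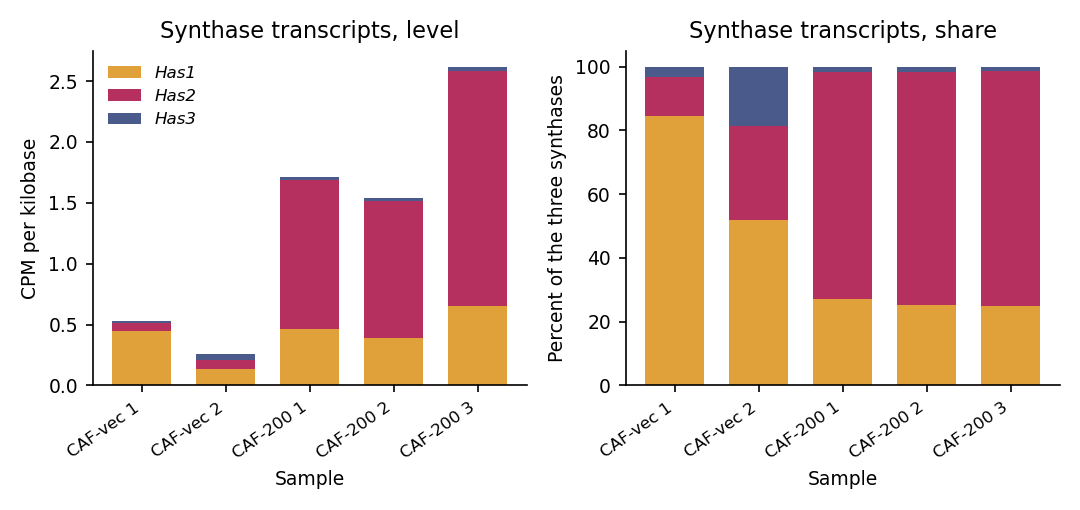
Synthase RNA in each sample as CPM per kilobase of principal transcript (left, stacked bars) and as a percentage of the 3 synthases (right). *Has1* is the largest part of both CAF-vec bars and *Has2* that of the 3 CAF-200 bars, at 71.3% to 73.7%.

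The hyaluronidase genes *Hyal1* and *Hyal2* lie 4147 bases apart on the plus strand of chromosome 9. *Hyal1* (ENSMUSG00000010051, chr9:107576927-107581710), which encodes a lysosomal enzyme, was 1.70 and 1.97 CPM in CAF-vec and 1.34, 1.09 and 1.18 CPM in CAF-200. All CAF-200 samples lay below both CAF-vec samples, an order shown by 37.3% of all tested genes. The log2 fold-change of -0.45 (SE 0.143, 95% interval -0.81 to -0.10) did not pass (limma adjusted *p* = 0.0609). It was -0.54 without CAF-vec 1 and -0.37 without CAF-vec 2, fits that leave 1 CAF-vec sample. The value of *Hyal1* is uncertain, since 1920 of its exon bases are shared on the same strand with *Naa80*, which was 7.59 and 10.3 CPM in CAF-vec and 7.85, 6.59 and 5.83 CPM in CAF-200.

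*Hyal2* (ENSMUSG00000010047, chr9:107567945-107572779), whose product is anchored at the cell surface and cuts long hyaluronan, was 28.5 and 25.2 CPM in CAF-vec and 29.1, 24.4 and 25.8 CPM in CAF-200. The groups overlapped throughout. Its log2 fold-change was -0.02 with a 95% interval of -0.31 to 0.26 (limma adjusted *p* = 0.882), and its sign turned after quantile normalization (0.08) and median centring (0.07).

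The 3 binding genes all rose. *Vcan* (ENSMUSG00000021614, chr13:89655312-89742509, minus strand), which encodes the large chondroitin sulfate proteoglycan versican, was 8.35 and 11.7 CPM in CAF-vec and 34.45, 35.03 and 35.59 CPM in CAF-200. The CAF-200 samples were close to one another and each far above both CAF-vec samples. The log2 fold-change was 1.77 (SE 0.1502, 95% interval 1.40 to 2.14, limma adjusted *p* = 0.0028), the 84th largest rise. Its coding transcripts run from 294 to 12427 bases in the annotation, and the gene total does not say which form changed.

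*Tnfaip6* (ENSMUSG00000053475, chr2:52038009-52056686, plus strand) encodes TSG-6, which transfers protein heavy chains onto hyaluronan. It was 1.22 and 1.41 CPM in CAF-vec and 3.47, 3.79 and 3.41 CPM in CAF-200. The groups did not overlap, and the log2 fold-change was 1.16 (SE 0.125, 95% interval 0.85 to 1.47, limma adjusted *p* = 0.00398). *Cd44* (ENSMUSG00000005087, chr2:102811141-102901665, minus strand), the cell surface receptor, was 55.3 and 69.6 CPM in CAF-vec and 130.7, 124.7 and 156.1 CPM in CAF-200. Every CAF-200 sample exceeded both CAF-vec samples, with a log2 fold-change of 1.13 (SE 0.149, 95% interval 0.76 to 1.502, limma adjusted *p* = 0.00619). The order of all CAF-200 samples above both CAF-vec samples, seen for *Has2*, *Vcan*, *Tnfaip6* and *Cd44*, was shown by 24.3% of all tested genes.

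**Figure D3:**
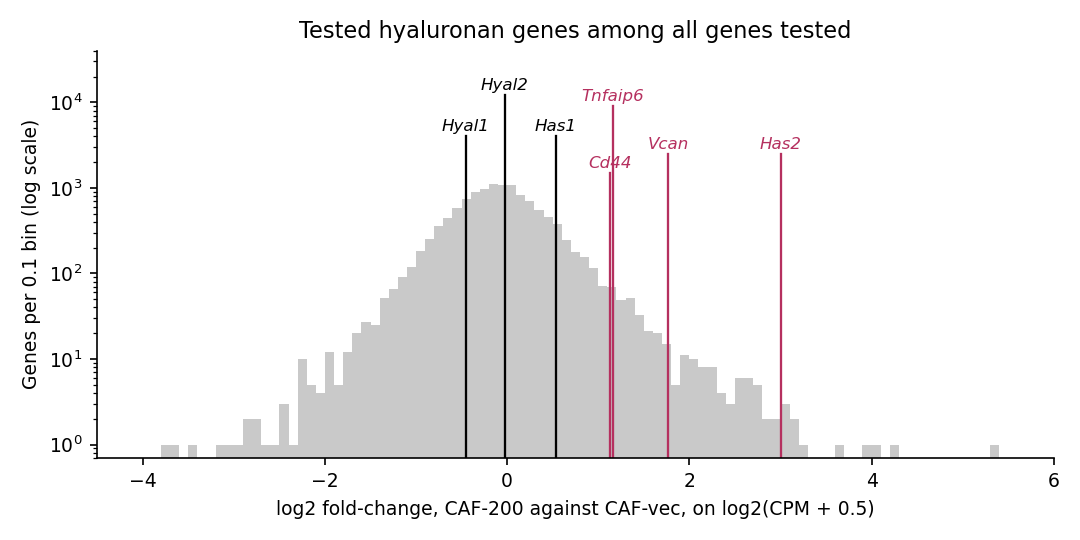
Log2 fold-changes of all 12175 tested genes (grey bars, number of genes per 0.1 bin, log axis) with vertical lines at the 7 tested hyaluronan genes, red where the adjusted *p* was under 0.05. *Cd44*, *Tnfaip6*, *Vcan* and *Has2* lie at 1.13, 1.16, 1.77 and 3.00, the other 3 between -0.45 and 0.54.

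Leaving out any 1 sample kept *Has2*, *Vcan*, *Tnfaip6* and *Cd44* higher at an adjusted *p* under 0.05 (limma), with log2 fold-changes of 2.78 to 3.14, 1.54 to 2.01, 1.09 to 1.24 and 0.97 to 1.30. Without CAF-200 1, 2 or 3 none of the 4 passed the stricter pair of thresholds, and over all genes at most 1 did. The fits without a CAF-vec sample leave 1 sample in that group, which is then taken to vary like the CAF-200 samples.

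**Figure D4:**
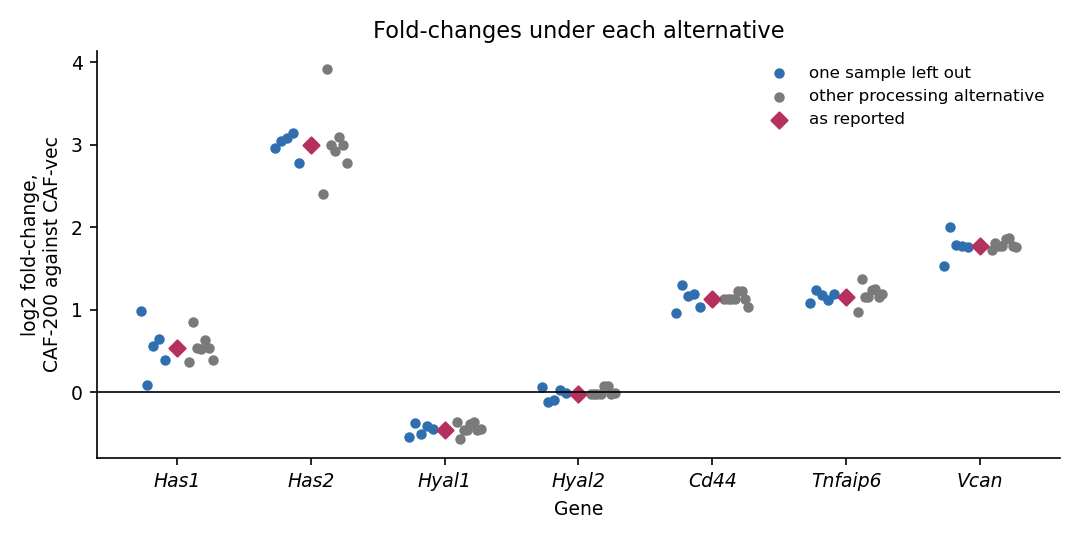
Log2 fold-change of each tested hyaluronan gene as reported (red diamond), with 1 sample left out (blue) and under the other processing alternatives (grey). *Has2*, *Cd44*, *Tnfaip6* and *Vcan* have 0.97 as their lowest value, *Hyal1* stays below 0, and *Hyal2* falls on both sides of 0.

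Levels can be set beside each other per kilobase of principal transcript. In CAF-vec the mean levels ran from *Hyal2* (13.03 CPM per kilobase) and *Cd44* (11.1), whose samples overlapped, through *Vcan* (4.33), *Tnfaip6* (0.769), *Hyal1* (0.609) and *Has1* (0.291) to *Has2* (0.0699) and *Has3* (0.0324). In CAF-200 *Cd44* came first (24.4 CPM per kilobase), followed by *Vcan* (15.1), *Hyal2* (12.8), *Tnfaip6* (2.08), *Has2* (1.42), *Has1* (0.502), *Hyal1* (0.400) and *Has3* (0.0296). *Has1* and *Hyal1* overlapped there. These places rest on the length chosen. With the union of exons *Vcan* was 0.695 CPM per kilobase in CAF-vec and 2.42 in CAF-200, *Cd44* (9.21) came before *Hyal2* (8.16) in CAF-vec too, and *Hyal1* (0.319) came before *Has1* (0.233) in CAF-200.

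Ratios within a sample restate these fold-changes gene against gene, and 5 of the 6 computed share *Has2*. The log2 ratio of *Has1* to *Has2* was 0.90 and -0.08 in CAF-vec and -1.948, -1.996 and -2.216 in CAF-200, a mean difference of -2.46. The ratios of *Has3*, *Cd44*, *Tnfaip6* and *Vcan* to *Has2* differed by -3.03, -1.87, -1.84 and -1.23, and that of *Hyal1* to *Hyal2* by -0.43. The groups were separate for all 6 ratios, and each two-sided exact permutation test gave *p* = 0.2, before and after Benjamini-Hochberg adjustment over the 6, which is the smallest value that 2 against 3 samples allow.

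A further 38 genes of hyaluronan metabolism and recognition were read as a list. Of these, 19 passed the filter, 2 were higher and 7 lower at an adjusted *p* under 0.05, beside the 11.9% and 18.6% of all tested genes, and 13 passed at an unadjusted *p* under 0.05, as did 44.9% of all tested genes. The median log2 fold-change of the 19 was -0.21. Of these calls, *Stab2* held in every fit without 1 sample, whereas *Ugp2*, *Gfpt1*, *Gfpt2*, *Hexa* and *Tlr2* were lost without CAF-200 1, 2 or 3, *Itih2* without CAF-200 1 or 2, and *Cemip* and *Tlr4* without CAF-200 1 or 3, so that 1 to 11 were lower and 0 to 5 higher over these fits, where 482 to 4835 of all tested genes were lower and 434 to 3031 higher. Of the 10 tested genes that did not pass, *Ugdh*, *Uap1*, *Layn* and *Cemip2* had fold-changes above 0 without CAF-vec 1 and below 0 without CAF-vec 2. Those fits leave 1 CAF-vec sample.

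**Figure D5:**
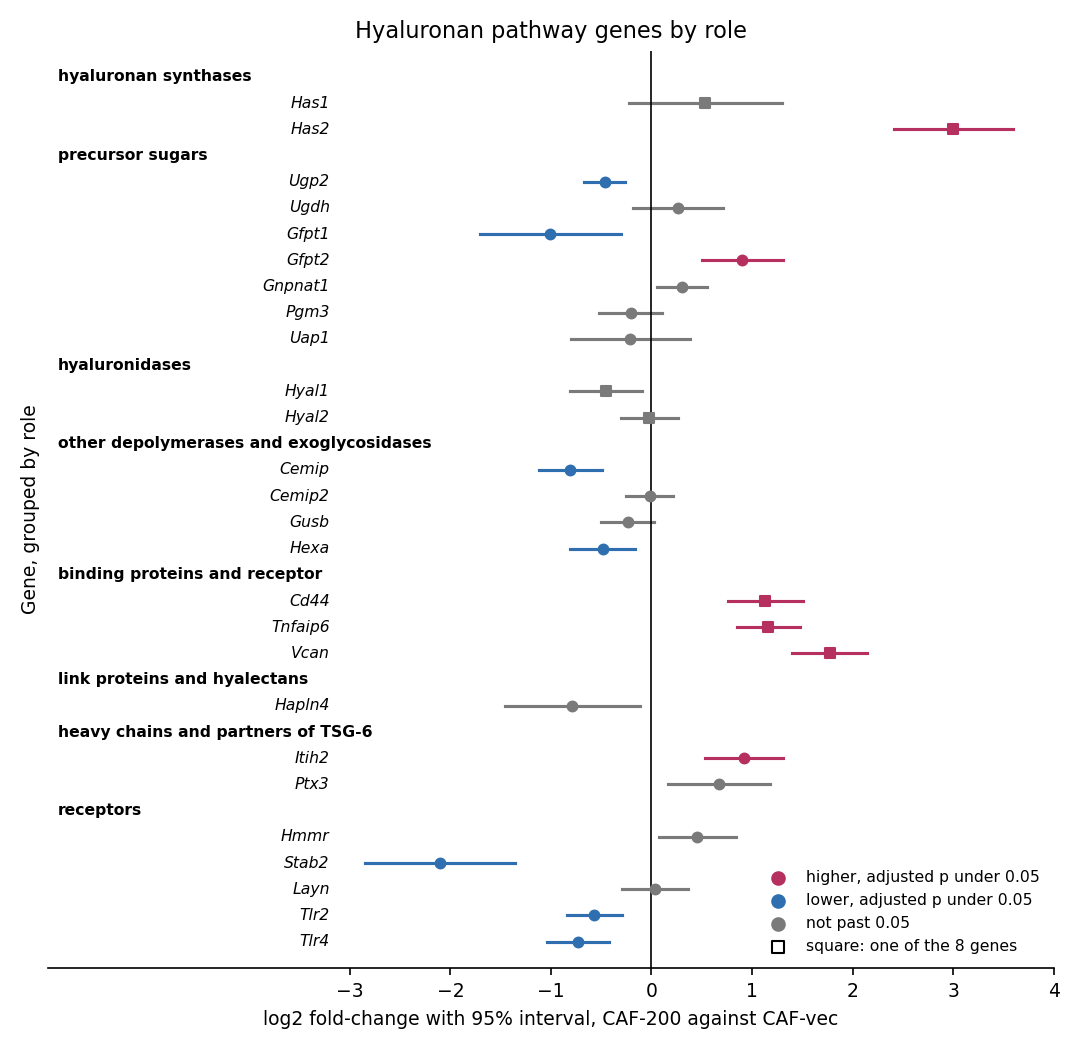
Log2 fold-change with its 95% interval (limma) for the tested hyaluronan genes, ordered by role; squares are among the 8 genes, circles among the 38 further ones, and colours give calls at an adjusted *p* under 0.05. *Has2*, *Vcan*, *Tnfaip6* and *Cd44* lie to the right at 1.13 or above, and *Stab2* lies farthest to the left at -2.10.

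All 7 genes for the precursor sugars were tested, and 1 was higher and 2 lower, beside 11.9% and 18.6% of all tested genes. *Gfpt1* and *Gfpt2* encode alternative forms of the enzyme that opens the hexosamine pathway. *Gfpt2* was 0.918 and 1.26 CPM in CAF-vec and 2.24, 2.78 and 2.37 CPM in CAF-200, a rise of 0.90 on the log2 scale (limma adjusted *p* = 0.0129). *Gfpt1* was 122.0 and 60.0 CPM in CAF-vec and 42.3, 42.9 and 42.0 CPM in CAF-200, and fell by 1.00 on the log2 scale (limma adjusted *p* = 0.0457). CAF-vec 1 stood well above CAF-vec 2, and the log2 fold-change of *Gfpt1* was -0.50 without CAF-vec 1 and -1.51 without CAF-vec 2. *Gfpt1* no longer passed without the filter on low values (limma adjusted *p* = 0.0743) or without a variance trend (0.0516). *Ugp2*, which makes UDP-glucose, went from 119.0 and 127.1 CPM to between 88.6 and 89.1 CPM, a log2 fold-change of -0.47 (limma adjusted *p* = 0.012). *Ugdh*, which turns that sugar into UDP-glucuronic acid, had a log2 fold-change of 0.26 and overlapping groups (limma adjusted *p* = 0.307). Its value was 0.55 without CAF-vec 1 and -0.03 without CAF-vec 2. *Gnpnat1*, *Pgm3* and *Uap1*, for later steps towards UDP-N-acetylglucosamine, had log2 fold-changes of 0.30, -0.21 and -0.21 and did not pass. They were 0.39, -0.39 and -0.62 without CAF-vec 2, and 0.22, -0.03 and 0.20 without CAF-vec 1.

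Of 9 further genes for depolymerases and exoglycosidases, 4 were tested, 2 were lower and none higher, beside the 18.6% and 11.9% of all tested genes. *Cemip*, which encodes a protein needed for hyaluronan breakdown by skin and synovial fibroblasts, was 959.3 and 814.5 CPM in CAF-vec and 505.4, 540.9 and 470.1 CPM in CAF-200. All CAF-200 samples lay below both CAF-vec samples, and the log2 fold-change was -0.81 (SE 0.126, limma adjusted *p* = 0.00904). *Hexa*, which encodes a subunit of a lysosomal enzyme that trims hyaluronan fragments, was 128.0 and 167.2 CPM in CAF-vec and 106.1, 104.1 and 103.1 CPM in CAF-200. It fell by 0.48 on the log2 scale (limma adjusted *p* = 0.0394), and its log2 fold-change was -0.68 without CAF-vec 1 and -0.29 without CAF-vec 2. After quantile normalization or median centring *Hexa* no longer passed (limma adjusted *p* = 0.132 and 0.0945). *Gusb*, for the lysosomal glucuronidase, had a log2 fold-change of -0.24 (limma adjusted *p* = 0.143; -0.10 without CAF-vec 1 and -0.37 without CAF-vec 2), and *Cemip2*, a transmembrane relative of *Cemip*, one of -0.02 (limma adjusted *p* = 0.902) that turned to 0.05 after quantile normalization and 0.08 after median centring. *Cemip2* was 8.50 and 7.97 CPM in CAF-vec and between 8.04 and 8.24 CPM in CAF-200. *Hyal3*, *Hyal4*, *Hyal5*, *Hyal6* and *Spam1* stayed at or below 0.428 CPM, with *Hyal5* and *Spam1* listed at 0 in every sample.

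Among 7 link proteins and hyalectans, relatives of versican and the proteins that fasten them to hyaluronan, only *Hapln4* was tested. It was 5.55 and 2.82 CPM in CAF-vec and 2.27, 1.79 and 2.25 CPM in CAF-200, and did not pass (log2 fold-change -0.79, limma adjusted *p* = 0.0758). Its log2 fold-change was -1.22 without CAF-vec 2 and -0.36 without CAF-vec 1. *Hapln1* was listed at 0 in every sample, and *Acan*, *Ncan*, *Bcan*, *Hapln2* and *Hapln3* stayed at or below 0.281 CPM, so that among the hyalectans *Vcan* alone was tested.

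Of 7 genes for heavy chains and partners of TSG-6, 2 were tested. *Itih2*, which encodes a heavy chain that TSG-6 can transfer, was 2.18 and 2.23 CPM in CAF-vec and 5.06, 5.07 and 3.82 CPM in CAF-200. All CAF-200 samples were above both CAF-vec samples, and the rise was 0.92 on the log2 scale (limma adjusted *p* = 0.0109). *Ptx3*, whose product pentraxin 3 crosslinks such chains, was 313.8 and 203.9 CPM in CAF-vec and 438.7, 416.1 and 357.6 CPM in CAF-200. Its log2 fold-change of 0.67 did not pass (limma adjusted *p* = 0.0563), but did after quantile normalization (0.74, limma adjusted *p* = 0.0227). It was 0.98 without CAF-vec 1 and 0.36 without CAF-vec 2. *Ambp*, for the bikunin that carries the heavy chains in serum, was listed at 0 in every sample.

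Of 8 further receptor genes, 5 were tested, 3 were lower and none higher, beside the same 18.6% and 11.9%. *Stab2*, a scavenger receptor that clears hyaluronan from the circulation, was 3.39 and 6.36 CPM in CAF-vec and 0.9498, 0.457 and 0.752 CPM in CAF-200. The groups were well separated, with a log2 fold-change of -2.10 (SE 0.300, limma adjusted *p* = 0.00764), and it was the 1 gene of the 38 to pass the stricter pair of thresholds. *Stab2* is known from sinusoidal endothelium, and the summed level of 7 endothelial markers was 1.88 to 3.17 CPM in the CAF-vec samples and 0.710 to 0.978 CPM in the others. Of these markers, *Kdr* was 2.31 and 1.82 CPM in CAF-vec and 0.690, 0.612 and 0.405 CPM in CAF-200, and thus made up most of the CAF-vec sums. *Cdh5* went the other way, at 0.0475 and 0.0195 CPM in CAF-vec and 0.0608, 0.112 and 0.122 CPM in CAF-200. *Pecam1* and *Tek* overlapped between the groups, *Erg* was at or below 0.0102 CPM, and *Emcn* and *Lyve1* were listed at 0 throughout. By RT-qPCR, the paper found *Kdr* in the CAFs themselves and lower after miRNA overexpression, and it cites earlier work naming *Kdr* a target. The summed level of these markers is therefore not a measure of endothelial cells alone. The part of endothelial cells in the fall of *Stab2* was not tested. *Tlr2* and *Tlr4*, innate receptors that can respond to hyaluronan fragments, fell by 0.57 and 0.73 on the log2 scale (limma adjusted *p* = 0.0158 and 0.0114). *Tlr4* was 14.1 and 16.2 CPM in CAF-vec and 7.997, 9.757 and 8.991 CPM in CAF-200.

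*Hmmr*, which encodes a hyaluronan-binding protein of the mitotic spindle, was 27.9 and 39.0 CPM in CAF-vec and 45.7, 47.6 and 42.9 CPM in CAF-200. Its log2 fold-change was 0.45 (limma adjusted *p* = 0.0745), and it was 0.22 without CAF-vec 1 and 0.69 without CAF-vec 2. Of 5 cell cycle genes given beside it, *Mki67*, *Top2a* and *Cdk1* were higher by 0.65, 0.53 and 0.54 on the log2 scale, beside 11.9% of all tested genes, while *Ccnb1* and *Plk1* did not pass. When any CAF-200 sample was left out their log2 fold-changes stayed between 0.51 and 0.66 and none passed (limma adjusted *p* = 0.083 for *Top2a* without CAF-200 2 to 0.1398 for *Cdk1* without CAF-200 3). Without CAF-vec 1 *Mki67* and *Cdk1* were 0.36 and 0.32, and without CAF-vec 2 they were 0.93 and 0.76. The part of cell cycling in the value of *Hmmr* was not tested. *Layn*, for the receptor layilin, overlapped between the groups at 52.3 to 69.2 CPM, with a log2 fold-change of 0.24 without CAF-vec 1 and -0.16 without CAF-vec 2.

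The profile of *Has2* over the 5 samples was compared with those of the other tested genes by the Euclidean distance of log2(CPM + 0.5) values, each centred on its own mean. Among the 5 nearest genes were *Lgr6* (distance 0.346), *Timp1* (0.352), *Ncam1* (0.426) and *Sh3kbp1* (0.514). *Lgr6*, a receptor for R-spondins, was 0.153 and 0.319 CPM in CAF-vec and 6.20, 4.56 and 8.21 CPM in CAF-200, with the highest value in CAF-200 3 as for *Has2*. *Ncam1*, a cell adhesion molecule, was 2.31 and 2.64 CPM in CAF-vec and 23.36, 23.07 and 26.02 CPM in CAF-200. *Timp1*, an inhibitor of metalloproteinases, was 245.7 and 296.0 CPM in CAF-vec and 2055 to 2587 CPM after miR-200 overexpression. The likeness is that of the change between the groups, since 5 samples in 2 groups carry little other pattern.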

How the data were processed

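RNA of 2 CAF-vec and 3 CAF-200 samples was sequenced as stranded, polyadenylated libraries in paired reads of 100 bases. The authors deposited 1 table of normalized CPM per gene, named for TMM. The submitters' processing notes name FastQC, cutadapt, Trimmomatic, STAR, RSEM and edgeR and the builds GRCm38 and mm10. Low values were not whole multiples of a common step (12.1% to 39.4% within 0.02), so reads were not recovered and no count test was run.

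Log2(CPM + 0.5) values were fitted by limma 3.58.1 (R 4.3.3), using lmFit and a trended eBayes, for genes that reached 0.5 CPM in 2 or more samples. The test was tried on simulated data. Symbols, lengths, coordinates and 3′-UTRs were those of GENCODE M21 (GRCm38), matched by Ensembl identifier, and miRNA sequences from RefSeq. Genes named are the 8 genes, the list genes with an adjusted *p* under 0.05 or needed to describe a role, overlapping genes, genes among the 5 nearest to *Has2*, and check genes (*Zeb1*, *Zeb2*, cell cycle). The genes and lists were chosen with earlier results of these data known. A gene of the further list, taken out of its counts, and a gene near *Has2* are not reported here. Alternatives were other pseudocounts (1 or 0.1), filters, scalings and thresholds, no variance trend, a replicate block and each sample left out. Tables and tests used Python 3.11.15 with numpy 2.4.6, pandas 2.3.3 and SciPy 1.17.1, and figures matplotlib 3.10.9.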

Additional observations from a re-analysis of the deposited data

How the results depend on the processing

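*Has2*, *Vcan*, *Tnfaip6* and *Cd44* kept their direction and an adjusted *p* under 0.05 (limma) in every alternative that tested them, with adjusted *p* values up to 0.0205, 0.0277, 0.0338 and 0.0379, and *Has2* was not tested when at least 1 CPM was required in every sample. Their log2 fold-changes ranged over 2.41 to 3.91, 1.54 to 2.01, 0.98 to 1.37 and 0.97 to 1.30. The number of the 8 genes that were lower was 1 instead of 0 without a variance trend (*Hyal1*, limma adjusted *p* = 0.0335), and 0 with CAF-200 1, 2 or 3 left out. The number past the stricter pair of thresholds was 0 with CAF-200 1, 2 or 3 left out. It was 3 with a pseudocount of 1 CPM, where *Tnfaip6* was 0.98. Without the filter it was also 3, *Cd44* having a limma adjusted *p* of 0.0112. Over all tested genes 242 and 218 passed that pair upward in these settings, against 289. The sign of *Hyal2* turned after quantile normalization (0.079) and median centring (0.073), and its log2 fold-change ran from -0.11 to 0.064 with 1 sample left out, above 0 without CAF-vec 1 (0.064) or CAF-200 2 (0.031). Of the 38 further genes, 1 to 11 were lower and 0 to 5 higher with 1 sample left out, against 7 and 2, while 482 to 4835 of all tested genes were lower and 434 to 3031 higher. At an adjusted *p* under 0.01, 2 were lower and 0 higher, and 678 and 542 over all tested genes. With at least 1 CPM in every sample 1 was higher, since *Gfpt2* (0.918 CPM in CAF-vec 1) was not tested under that filter. After quantile normalization or median centring 4 were higher, *Gnpnat1* and *Ptx3* being the additional ones. The cause of the other shifts was not tested. All 6 ratios kept their sign with a pseudocount of 0.1 CPM. A count test with edgeR or DESeq2 was not run, since whole reads were not recovered, and the unknown depth gives no interval for the low values of *Has3* and of *Has2* in CAF-vec.

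The sources do not say whether replicates 1 and 2 of the groups were paired beyond their number. Their deviations from the group means correlated at 0.25 for number 1 and 0.13 for number 2, and 0.12 for CAF-vec 2 with CAF-200 3. The deviations of the 2 CAF-vec samples are exact opposites, so these correlations cannot show whether the numbers were paired. With the replicate number as a block, which gives CAF-200 3 no part in the fold-changes, 4 of the 7 tested hyaluronan genes were higher. Of these, 2 (*Has2* and *Vcan*) passed the stricter pair of thresholds, as did 101 of all tested genes upward and 70 downward. Of the 19 further genes tested, 2 were lower (*Stab2* and *Tlr4*) and 2 higher (*Gfpt2* and *Itih2*). *Cemip* (limma adjusted *p* = 0.0707), *Ugp2*, *Gfpt1*, *Hexa* and *Tlr2* no longer passed. Over all genes 630 were then higher and 852 lower.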
